A study of Mus musculus with 20 samples.

Results

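The 9 genes described here encode proteins that build iron-sulfur clusters in mitochondria: Nfs1, Iscu, Fdxr, Hscb, Glrx5, Isca1, Isca2, Iba57 and Nfu1. They were chosen by name and found by Ensembl identifier among 28632 genes in a table of RNAseq counts from mouse islets, and all 9 had counts in every library. Islets came from 12-week-old mice of both sexes on the C57BL/6N background. The comparison asked how loss of the mitofusins Mfn1 and Mfn2, the outer membrane GTPases that fuse mitochondria, altered islet mRNA. There were 4 β-Mfn1KO libraries (floxed Mfn1 with Ins1-Cre), 5 β-Mfn2KO libraries (floxed Mfn2 with Ins1-Cre), 5 β-Mfn1/2DKO libraries (both floxed genes with Ins1-Cre) and 6 Ctrl libraries. The labels name the controls wild type, whereas the study's methods describe a pool of Ins1-Cre mice and floxed mice, and which animal was which was not given. Ins1-Cre acts in β-cells, so the α-, δ-, endothelial and other cells of the islet kept their mitofusins. Islets were cultured before RNA was extracted. The study gives these group sizes as numbers of mice, so the spread between libraries was taken as that between mice.

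Iron-sulfur clusters are cofactors that carry electrons or hold substrates, and most are first put together in the mitochondrial matrix. Nfs1 takes sulfur from cysteine and passes it to the scaffold Iscu, while Fdxr feeds electrons to ferredoxin for this step. The co-chaperone Hscb and its partner Hspa9 move the new cluster from Iscu to Glrx5. Isca1, Isca2 and Iba57 then make the larger cluster type, and Nfu1 hands it to enzymes such as lipoyl synthase and to respiratory complexes. In β-cells these client proteins are part of the respiratory chain and citric acid cycle, through which glucose metabolism is coupled to insulin secretion.

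Hscb (ENSMUSG00000043510) lies at chr5:110829070-110839777 on the minus strand of GRCm38 and Nfu1 (ENSMUSG00000029993) at chr6:87009236-87028461 on the plus strand. The other members are Nfs1 at chr2:156123639-156144186, Iscu at chr5:113772748-113778288, Fdxr at chr11:115268024-115277050, Glrx5 at chr12:105032688-105042906, Isca1 at chr13:59755409-59769810, Isca2 at chr12:84773251-84775088 and Iba57 at chr11:59155369-59163739. RefSeq promoter windows on GRCm38.p6 were matched for 7 of the 9 members, and the 250 bases before the start were searched on both strands. The parts of the Nfu1 and Isca1 windows that hold no annotated exon of the gene itself are shown, Nfu1 because its mRNA rose and Isca1 because its mRNA did not pass the test. Capitals mark the CCAAT box, the letters CCAAT or their reverse complement. The first stretch is chr6:87009586-87009749 on the plus strand and the second is chr13:59769811-59770039 on the minus strand. The Nfu1 stretch is intronic in a longer annotated transcript of the gene, and the Isca1 stretch overlaps exons of the antisense gene Etohd2.
Nfu1: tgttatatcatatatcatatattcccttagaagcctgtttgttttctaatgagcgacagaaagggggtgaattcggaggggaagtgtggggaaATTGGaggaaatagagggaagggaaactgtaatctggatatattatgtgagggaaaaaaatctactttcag
Isca1: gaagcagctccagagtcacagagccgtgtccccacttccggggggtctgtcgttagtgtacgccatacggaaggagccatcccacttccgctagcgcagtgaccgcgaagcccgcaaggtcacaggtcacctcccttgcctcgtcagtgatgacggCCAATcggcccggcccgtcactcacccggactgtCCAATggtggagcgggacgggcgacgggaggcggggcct
The CCAAT box was in the 250-base windows of 5 of 7 members (Nfu1, Fdxr, Isca2, Glrx5 and Isca1) and in 33.8% of all 32851 windows. A core motif of the nuclear respiratory factor NRF1 was in 1 member window (Isca1) and in 4.98% of all. The letters TGATGNAA, a motif bound by the stress factor ATF4, were in 0 of the 7 and in 3.45% of all. These are matches of letters and not measured binding.

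Depth differed with genotype. Ctrl libraries held 12400687 to 20329064 counts, β-Mfn1KO 15745680 to 16685381, β-Mfn2KO 15110046 to 59533407 and β-Mfn1/2DKO 65533388 to 122947313. Over all libraries, the fewest raw counts of a member in a library were 88, for Hscb in Ctrl, against at least 628 for Hscb in β-Mfn1/2DKO. The targeted genes followed the labels. Mfn1 was at 621 to 770.4 normalized counts in β-Mfn1KO and 687 to 1062 in β-Mfn1/2DKO against 1518 to 1807 in Ctrl, and Mfn2 was at 1474 to 1688 in β-Mfn2KO and 2022 to 2131 in β-Mfn1/2DKO against 3089 to 4373 in Ctrl. Normalized counts were brought to the mean library size with edgeR's TMM factors. The islet markers were present: summed CPM (library-scaled counts) of 8 β-cell markers ranged from 144000 to 232000 in Ctrl and from 63700 to 86600 in β-Mfn1/2DKO, where all 8 were lower at adjusted p < 0.05 by edgeR. They include Ins1, and the study describes Ins1-Cre as a knock-in strain. Mean normalized counts of Ins1 were 817829 in β-Mfn1KO and 753679.6 in β-Mfn2KO against 1444206 in Ctrl. In each single knockout Ins1 was the 1 β-cell marker of 8 that passed. β-Mfn1/2DKO replicates 4 and 5 stood apart with high acinar mRNA, since their mean log2 CPM over 10 acinar markers was 10.21 and 11.63 against 2.84 to 8.99 in the other libraries.

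In β-Mfn1/2DKO islets, Hscb and Nfu1 mRNA were higher than in Ctrl by 1.38-fold and 1.35-fold, and the other 7 members did not pass the test. Thus 2 of 9 members passed an adjusted p < 0.05 (edgeR quasi-likelihood test, Benjamini-Hochberg adjustment over all genes), both upward, where 16.5% of all genes passed in either direction and 9.59% passed upward. Among the 15267 genes retained by an expression filter, all 9 members included, 35.2% passed. No member passed both this threshold and a 1.5-fold change, which 5.21% of all genes did. The median log2 fold change of the 9 members was 0.09, beside 0.06 over all genes and 0.03 over the 12274 genes whose mean normalized count was 100 or more. Scaling by total counts alone moved that last median to 0.17, and 6 of 9 members then passed, all upward. Of all genes that passed, 58.3% were higher in β-Mfn1/2DKO, against 85.0% with total-count scaling and 48.2% with the authors' factors.

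**Figure D1:**
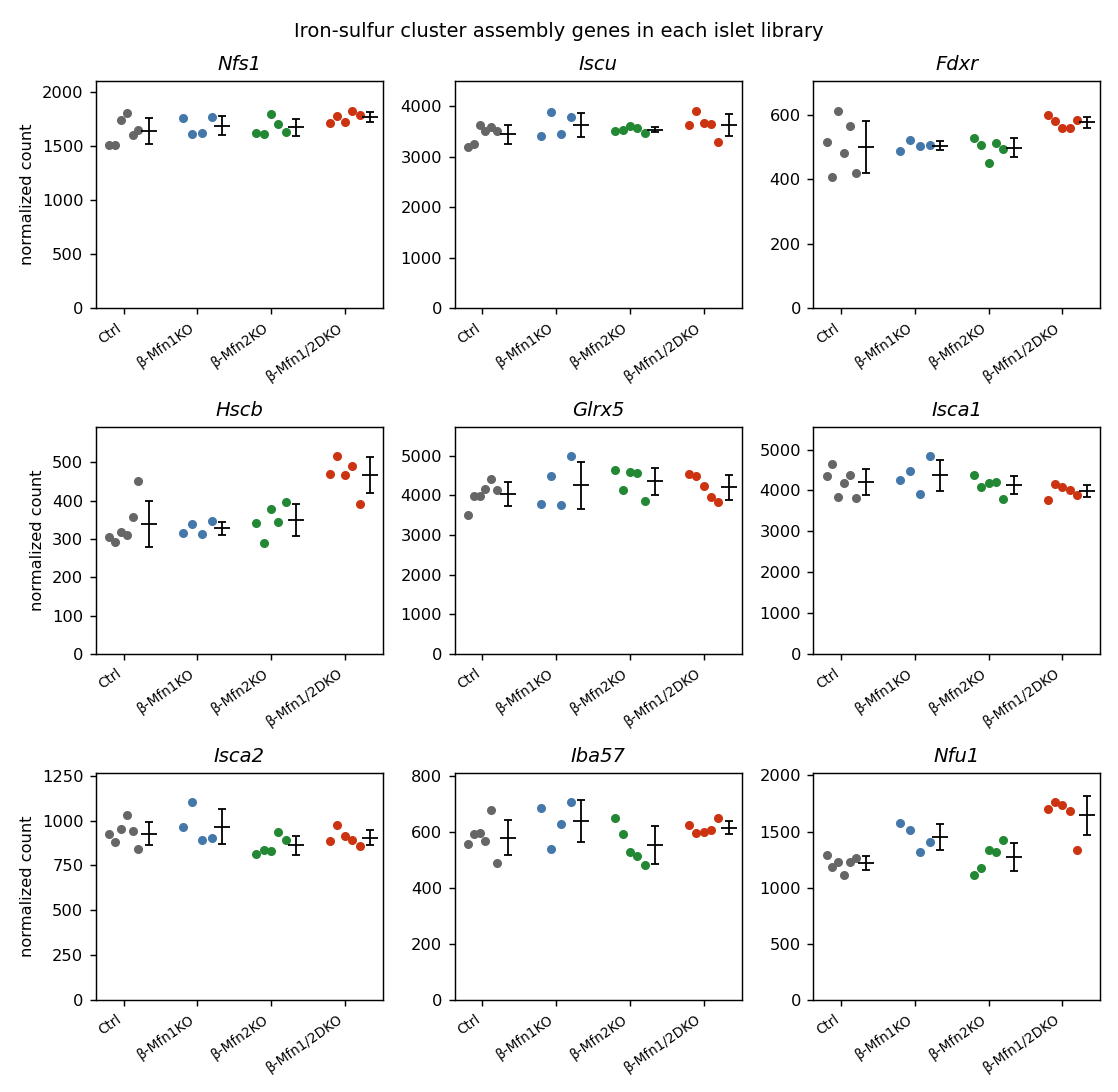
Normalized count of each member (vertical axes from 0) in every Ctrl, β-Mfn1KO, β-Mfn2KO and β-Mfn1/2DKO library, with 1 point per library and the group mean ± SD beside the points. Hscb and Nfu1 are shifted upward in β-Mfn1/2DKO, with replicate 5 lowest at 391 and 1338, while the β-Mfn1/2DKO points of the other 7 members overlap those of Ctrl.

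Hscb, the co-chaperone that hands the scaffold to its Hsp70, had 292 as its lowest, 314 as its median and 451 as its highest normalized count in the 6 Ctrl libraries. In the 4 β-Mfn1KO libraries it stood at 315, 338, 313 and 347. The 5 β-Mfn2KO libraries gave 341, 288, 377, 344 and 395. The 5 β-Mfn1/2DKO libraries gave 469.8, 515, 467, 489.9 and 391, so that 4 of 5 were above every Ctrl library and replicate 5 was below Ctrl replicate 6. Hscb was higher in β-Mfn1/2DKO than in Ctrl by 0.46 ± 0.11 on the log2 scale (SE, 95% interval 0.24 to 0.68, adjusted p = 0.0036 by edgeR). Against β-Mfn2KO the difference was 0.42 ± 0.11 (adjusted p = 0.013 by edgeR) with overlapping libraries. Against β-Mfn1KO it was 0.51 ± 0.12 (adjusted p = 0.0041 by edgeR), and every β-Mfn1/2DKO library was above every β-Mfn1KO library, as for 10.8% of all genes. In order of mean, Hscb ran from β-Mfn1KO (328 ± 16.6, SD) through Ctrl (339 ± 59.5) and β-Mfn2KO (349 ± 40.8) to β-Mfn1/2DKO (467 ± 46.4), and the first 3 of these did not differ beyond their spread.

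Nfu1, the late-acting carrier, had 1112 as its lowest, 1230.3 as its median and 1294 as its highest normalized count in Ctrl. It stood at 1572, 1512, 1319 and 1403 in β-Mfn1KO and at 1114, 1177, 1333, 1315 and 1427 in β-Mfn2KO. In β-Mfn1/2DKO it was at 1702, 1761, 1736, 1685 and 1338. All 5 of these were above all Ctrl libraries, which held upward for 6.56% of all genes, while replicate 5 lay far below its group and overlapped both single knockouts. The difference from Ctrl was 0.43 ± 0.07 on the log2 scale (SE, 95% interval 0.28 to 0.58, adjusted p = 0.00019 by edgeR), and that from β-Mfn2KO was 0.37 ± 0.08 (adjusted p = 0.0019 by edgeR). The 4 β-Mfn1KO libraries also lay above all Ctrl libraries, as they did for 0.503% of all genes, but the difference of 0.25 ± 0.08 did not pass (unadjusted p = 0.0044, adjusted p = 0.53 by edgeR). β-Mfn1/2DKO and β-Mfn1KO differed by 0.18 ± 0.08 (adjusted p = 0.14 by edgeR), and without β-Mfn1/2DKO replicate 5 by 0.25 (adjusted p = 0.019 by edgeR). Group means ran in the order Ctrl (1218 ± 63.9, SD), β-Mfn2KO (1273 ± 126), β-Mfn1KO (1451 ± 113) and β-Mfn1/2DKO (1645 ± 174), and each neighbouring pair of groups overlapped in at least 1 library.

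Depth moved with these differences. All 5 β-Mfn1/2DKO libraries but only 2 of the 15 others, β-Mfn2KO replicates 4 and 5, held more than 20329064 counts. Within β-Mfn2KO, the deep libraries stood at 344 and 395 for Hscb against 341, 288 and 377 in the shallow ones, and at 1315 and 1427 for Nfu1 against 1114, 1177 and 1333. Both deep β-Mfn2KO libraries came from males, as did the shallow one at 377 and 1333, while the other shallow ones came from females. Depth was thus partly mixed with sex there, and the parts of depth and sex were not tested apart. With depth class as a covariate, which leaves the β-Mfn2KO libraries alone to set the effect of depth, the difference from Ctrl was 0.32 for Hscb (adjusted p = 0.49 by edgeR) and 0.25 for Nfu1 (adjusted p = 0.38), and 0 of 9 members passed. With every library drawn down to the smallest total, Hscb differed by 0.36 (adjusted p = 0.048) and Nfu1 by 0.39 (adjusted p = 0.00043). Under the authors' own normalization factors Hscb differed by 0.53 (adjusted p = 0.0016) and Nfu1 by 0.30 (adjusted p = 0.088). Depth class and genotype cannot be told apart between β-Mfn1/2DKO and Ctrl.

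**Figure D2:**
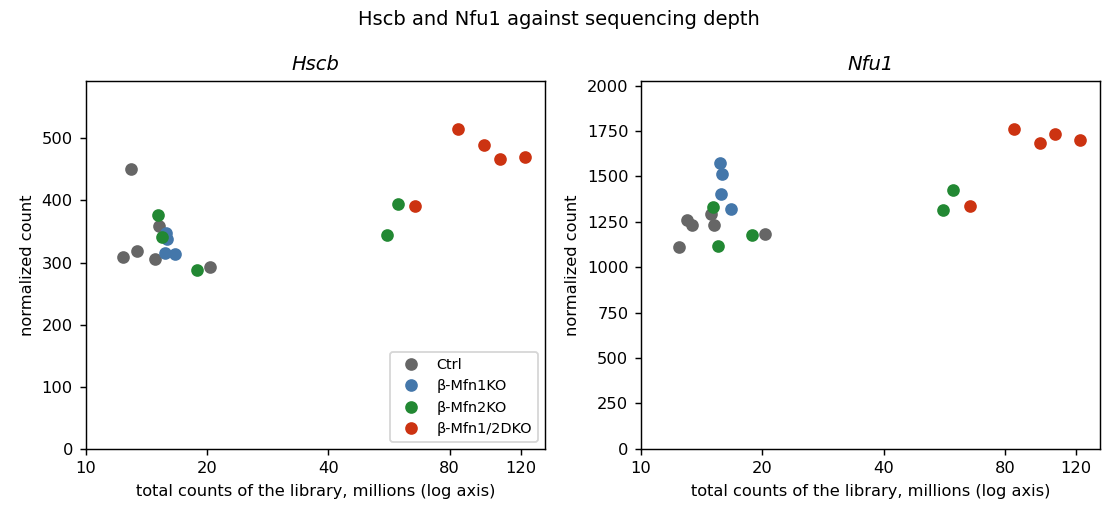
Normalized count of Hscb (left) and Nfu1 (right) in each library against the total counts of the library on a log axis, with 1 point per library coloured by genotype. No Ctrl library holds more than 20329064 counts and no β-Mfn1/2DKO library fewer than 65533388, and the 2 deep β-Mfn2KO libraries lie below 4 of the 5 β-Mfn1/2DKO libraries.

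Marker mRNA of other cell types also differed. Beside the lower β-cell markers, all 3 endothelial markers were higher in β-Mfn1/2DKO at adjusted p < 0.05, with summed levels of 109 to 177 CPM against 77.1 to 112 in Ctrl, and 10 of 10 acinar markers were higher, with summed levels of 488 to 51800 against 307 to 2300. The acinar call rested on replicates 4 and 5: the median summed level was 843 in β-Mfn1/2DKO against 1050 in Ctrl, 0 of 10 markers passed without replicate 5, and without both replicates 0 of 10 passed with a median log2 difference of -0.855. None of these endothelial or acinar markers was at 0 in any library. All 4 α-cell markers had positive differences (median log2 0.359), of which 1 passed, with summed levels of 31000 to 52100 against 15200 to 49300. Of 2 δ-cell markers 0 passed (median -0.234). Of 3 duct and 3 stromal markers, 1 each was higher, and 0 of 3 macrophage and leukocyte markers passed. The acinar-rich replicate 5 had the lowest Hscb and Nfu1 of its genotype, while the acinar-rich replicate 4 stood at 489.9 and 1685. Without replicates 4 and 5 both genes differed from Ctrl by more (0.54 and 0.53, adjusted p = 0.0037 and 2.7e-05 by edgeR). Without replicate 5 alone they differed by 0.52 and 0.50, and without replicate 4 alone by 0.47 and 0.45. With all libraries the differences were 0.46 and 0.43. The part of β-cell, endothelial and the other non-acinar markers in these differences was not tested. In bulk islets, fewer cells of a type and less RNA per cell cannot be told apart from counts alone. For β-cells, the study reports that their mass, measured in somewhat younger mice, was not significantly different between genotypes.

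Of the members that supply sulfur, scaffold and electrons, Nfs1 and Iscu had narrow ranges. Nfs1, the cysteine desulfurase, ranged from 1508 to 1829 over the 20 libraries and was at 1637 ± 120 (SD, n = 6) in Ctrl against 1768 ± 46.9 (SD, n = 5) with both mitofusins lost, a log2 difference of 0.11 (95% interval 0.01 to 0.22, adjusted p = 0.14 by edgeR). Its value is uncertain, because 7.15% of its 75-base stretches are shared with other genes and its exons overlap Romo1 on the opposite strand, while the strand setting of the counting was not stated. Iscu, the scaffold, ranged from 3184 to 3911, and its difference of 0.08 had a 95% interval of -0.03 to 0.18 (adjusted p = 0.36 by edgeR). Fdxr, the ferredoxin reductase, spread from 408 to 614 in Ctrl and stood at 599, 580.3, 561, 559.7 and 586 in β-Mfn1/2DKO, within the range of Ctrl. Its difference from Ctrl was 0.21 ± 0.09 (SE, 95% interval 0.03 to 0.38, adjusted p = 0.11 by edgeR). Without Ctrl replicate 3, the highest at 614, Fdxr passed (adjusted p = 0.022 by edgeR) and 3 of 9 members did. Each β-Mfn1/2DKO library was above each β-Mfn2KO library (452 to 528) and each β-Mfn1KO library (488 to 522) for Fdxr, a separation that 6.56% and 10.8% of all genes showed upward, but neither difference passed (adjusted p = 0.13 and 0.19 by edgeR).

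Of the members that receive the cluster and complete it, apart from Nfu1, none passed in any comparison with Ctrl. Glrx5, the monothiol glutaredoxin that accepts the cluster, ranged from 3509 to 4981, with a β-Mfn1/2DKO against Ctrl difference of 0.06 (95% interval -0.10 to 0.22, adjusted p = 0.65 by edgeR). Isca1 ranged from 3767 to 4832 and differed by -0.08 (95% interval -0.20 to 0.04, adjusted p = 0.44), with 11.9% of its stretches shared with other genes and the antisense gene Etohd2 over part of its exons. Its partner Isca2 ranged from 815 to 1103 and differed by -0.03 (95% interval -0.17 to 0.10, adjusted p = 0.76). Iba57, the third protein of this step, ranged from 483 to 707 and differed by 0.09 (95% interval -0.09 to 0.26, adjusted p = 0.59). In the main fit, the intervals of these 4 genes and of Iscu lay between fold changes of 0.871 and 1.20. Under the alternatives listed below, apart from leaving out 1 library, log2 differences ran from -0.22 to 0.20 for Glrx5. For Iba57 they ran from 0.01 to 0.33. In the deep libraries alone, where 5 β-Mfn1/2DKO and 2 β-Mfn2KO libraries remained, Iba57 was the 1 member that passed (adjusted p = 0.029 by edgeR) and differed by 0.35, while Hscb and Nfu1 differed by 0.38 and 0.31 and did not pass (adjusted p = 0.12 and 0.15).

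Neither single knockout changed a member by the test. In β-Mfn2KO against Ctrl 0 of 9 members passed, with 0.0559% of all genes passing, and the members' log2 differences ran from -0.10 for Isca2 to 0.11 for Glrx5. In β-Mfn1KO against Ctrl 0 of 9 passed, with 0.0279% of all genes passing, and the differences ran from -0.05 for Hscb to 0.25 for Nfu1. At an unadjusted p < 0.05 (edgeR), 0 members were found in β-Mfn2KO and 1, Nfu1, in β-Mfn1KO. Of all 28632 genes, 1208 reached this level in β-Mfn2KO and 2130 in β-Mfn1KO. Among the 12274 genes with a mean normalized count of 100 or more, 562 and 1455 did. At an adjusted p < 0.05, DESeq2 also called 0 members in each single knockout. β-Mfn1/2DKO differed from β-Mfn2KO in 2 of 9 members (13.0% of all genes) and from β-Mfn1KO in 1 of 9 (17.4% of all genes). Among genes with a mean normalized count of 100 or more, the shares were 26.6% and 35.1%. These comparisons share libraries, and each was read on its own. The interaction asks whether losing Mfn1 had a different effect without Mfn2 than with it. It was passed by 0 of 9 members, by 5.92% of all genes and by 12.8% of those with a mean normalized count of 100 or more. For Hscb the interaction was 0.46 ± 0.16 (95% interval 0.12 to 0.80, unadjusted p = 0.0095, adjusted p = 0.10 by edgeR), and it was the 1 member with an unadjusted p < 0.05. That level was reached by 5286 of all 28632 genes and by 4089 of the 12274 with a mean normalized count of 100 or more. DESeq2 also called 0 members.

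**Figure D3:**
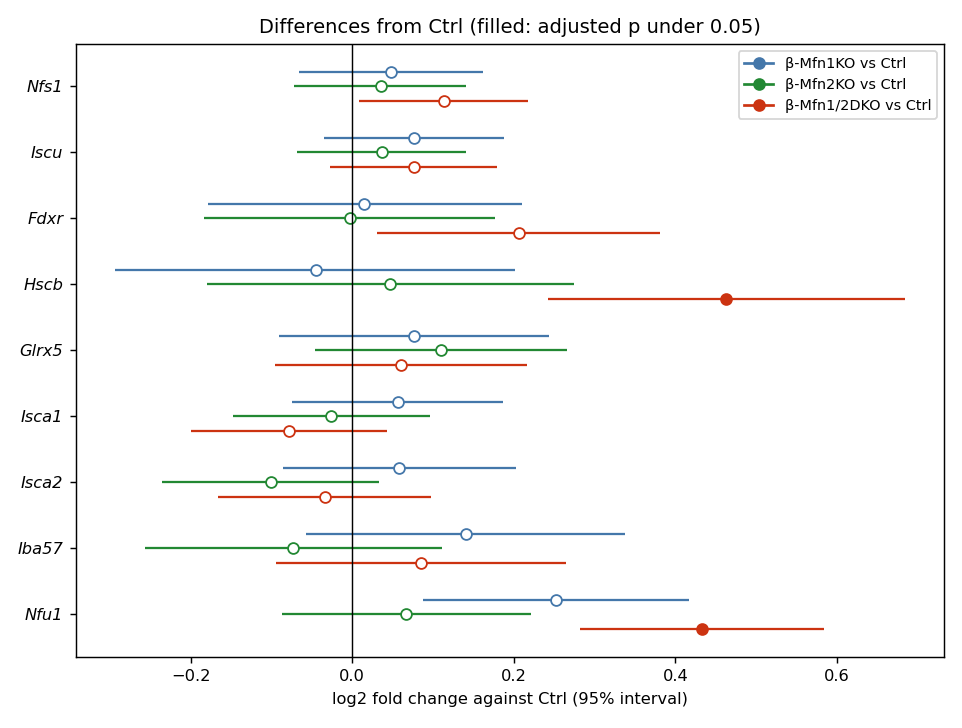
Log2 fold change of each member against Ctrl on the horizontal axis, with its 95% interval, for β-Mfn1KO, β-Mfn2KO and β-Mfn1/2DKO, where filled points have an adjusted p under 0.05. The filled points are Hscb at 0.46 and Nfu1 at 0.43, both in β-Mfn1/2DKO.

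Compared per length of exon, the members' levels in Ctrl ran from 38.2 for Iscu to 2.87 for Iba57. Iscu was the highest at 38.2 ± 2.08 (SD, n = 6) CPM per kilobase of exon, followed by Glrx5 at 26.5 ± 2.00. Isca2 (12.2 ± 0.859), Nfs1 (10.9 ± 0.805), Isca1 (9.50 ± 0.726) and Hscb (9.05 ± 1.59) came next. All genes were measured in the same libraries, and differences between genes were not tested. Nfu1 (6.10 ± 0.32), Fdxr (4.31 ± 0.696) and Iba57 (2.87 ± 0.306) were lowest. In β-Mfn1/2DKO Hscb stood at 12.5 ± 1.24 and Nfu1 at 8.24 ± 0.87 on the same scale. These levels depend on exon length taken over all annotated transcripts, which overstates length where most transcripts are short.

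Among 12 other mitochondrial assembly genes, 6 were higher and 1 was lower in β-Mfn1/2DKO than in Ctrl, with a median log2 fold change of 0.21, against 9 and 0 (median 0.35) with total-count scaling. In this comparison 16.5% of all genes passed in either direction, and 33.6% of those with a mean normalized count of 100 or more. Hspa9, the Hsp70 chaperone that works with Hscb, was at 34977, 39766, 37329.6, 35322 and 31100.3 in β-Mfn1/2DKO against a Ctrl range of 21163 to 30912. It was higher by 0.49 ± 0.11 on the log2 scale (adjusted p = 0.0037 by edgeR), although the lowest β-Mfn1/2DKO and the highest Ctrl library were close. Fdx2, the ferredoxin that Fdxr serves, was at 707, 732, 677, 774 and 711 against 426 to 632, higher by 0.45 ± 0.10 (adjusted p = 0.0035 by edgeR). In the deep β-Mfn2KO libraries it was at 638 and 656, against 434 to 530.3 in the shallow ones, and with depth class as a covariate its difference was 0.03. Fdx1, a second ferredoxin, was higher by 0.23 (adjusted p = 0.036 by edgeR), and with depth class as a covariate it differed by -0.02. With depth class as a covariate 0 of these 12 genes passed, although Hspa9 still differed by 0.33 (adjusted p = 0.51 by edgeR).

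Of 11 cytosolic assembly genes, 3 were higher and 1 was lower, with a median of 0.03, against 6 and 0 (median 0.17) with total-count scaling, 1 and 1 with the authors' factors and 2 and 0 with depth class as a covariate. Here too the shares passing were 16.5% of all genes and 33.6% of those with a mean normalized count of 100 or more. Ciapin1, an electron carrier of the cytosolic pathway, stood at 2040.1, 2205, 1899, 2180.2 and 2002 in β-Mfn1/2DKO against 1326 to 1419 in Ctrl, 1401 to 1603 in β-Mfn1KO and 1154 to 1328 in β-Mfn2KO. It was higher than Ctrl by 0.59 ± 0.05 (adjusted p = 4e-08 by edgeR), and its interaction also passed (0.55, adjusted p = 0.00022 by edgeR). Ciao3, which links early and late factors of that pathway, was at 1305 to 1613 against 1099 to 1279 and was higher by 0.31 ± 0.06 (adjusted p = 0.00051 by edgeR). Under the authors' factors Ciao3 differed by 0.20 (adjusted p = 0.34). Of 14 mitochondrial proteins that carry clusters, 1 was higher and 1 lower, with a median of 0.01, against 5 and 0 (median 0.15) with total-count scaling and 0 and 0 with depth class as a covariate. The same shares of 16.5% and 33.6% stand beside this count. Ndufs1, a complex I subunit, fell by 0.21 on the log2 scale (3678 to 4177 against 4366 to 4785, adjusted p = 0.0012 by edgeR), and Fech, the last enzyme of haem synthesis, was higher by 0.21 (2787 to 3096 against 2457 to 2687, adjusted p = 0.002 by edgeR). With total-count scaling Ndufs1 differed by -0.07 (adjusted p = 0.39 by edgeR).

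**Figure D4:**
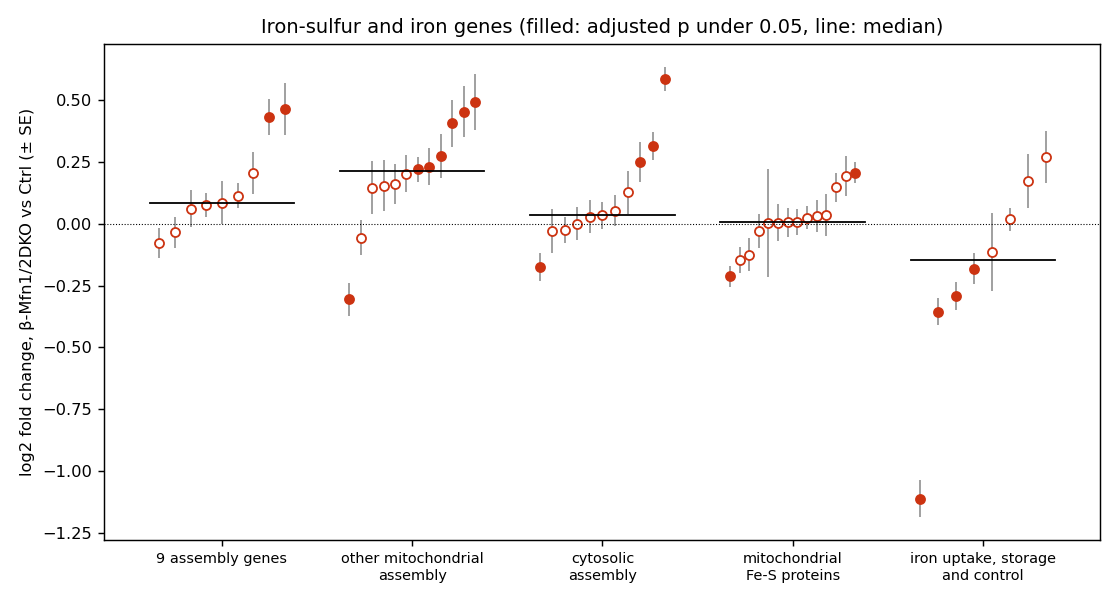
Log2 fold change (± SE) between β-Mfn1/2DKO and Ctrl for every gene of 5 lists, 1 point per gene, with filled points at an adjusted p under 0.05 and a line at the list's median. Other mitochondrial assembly genes have the highest median (0.21), and the lowest point is Tfrc at -1.11 among iron genes.

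Of 8 genes of iron uptake, storage and control, 0 were higher and 4 were lower in β-Mfn1/2DKO, with a median of -0.15. Of all genes 16.5% passed in either direction, and 33.6% of those with a mean normalized count of 100 or more. Total-count scaling gave 2 higher and 2 lower (median -0.01), and depth class as a covariate 0 higher and 1 lower. Tfrc, the transferrin receptor through which cells import iron, stood at 2503, 2459, 2580, 2311 and 2131 in β-Mfn1/2DKO against 4920.2 to 5822 in Ctrl, 4538 to 5546 in β-Mfn1KO and 4246 to 5869.8 in β-Mfn2KO. No β-Mfn1/2DKO library came near those of another genotype. Tfrc fell by 1.11 ± 0.08 on the log2 scale, to 0.463-fold (adjusted p = 1e-09 by edgeR), and it passed in every alternative run, with differences from -1.37 to -0.97. Its interaction was -1.05 (95% interval -1.27 to -0.82, adjusted p = 1.4e-05 by edgeR). Ncoa4, the receptor that brings ferritin to lysosomes for iron release, was at 3536 to 3902 against 4377 to 5235 and fell by 0.36 (adjusted p = 7.3e-05 by edgeR), with an interaction of -0.27 (adjusted p = 0.049). With depth class as a covariate, Ncoa4, Ndufs1 and Fech differed by -0.21, -0.18 and 0.22 and did not pass (adjusted p = 0.29, 0.30 and 0.19), while Tfrc and Ciapin1 did.

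**Figure D5:**
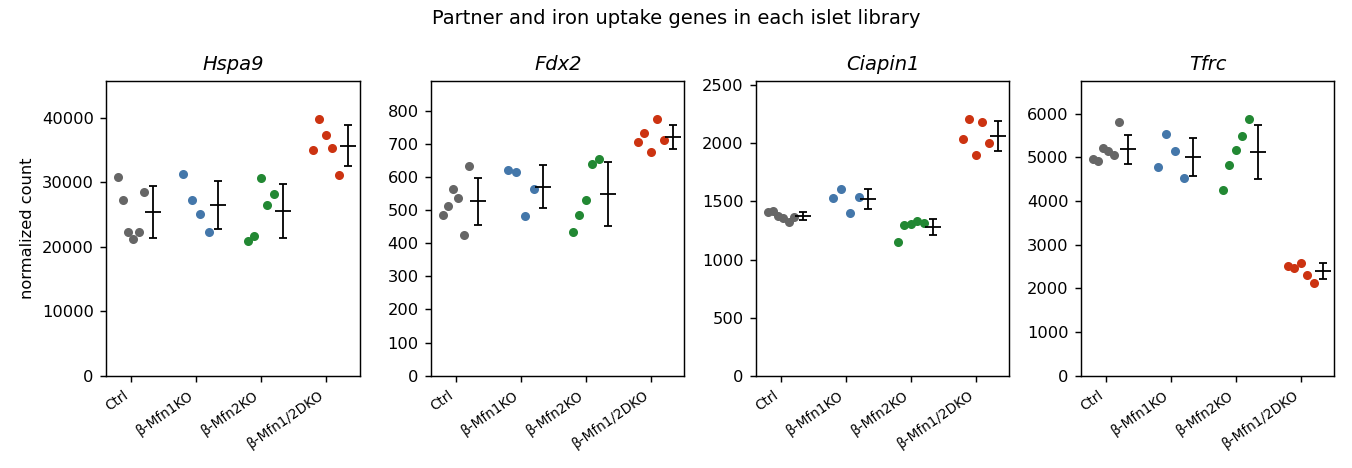
Normalized count of Hspa9, Fdx2, Ciapin1 and Tfrc (vertical axes from 0) in every library of the 4 genotypes, with 1 point per library and the group mean ± SD beside the points. The β-Mfn1/2DKO libraries lie above all Ctrl libraries for Hspa9, Fdx2 and Ciapin1 and below them for Tfrc, where they range from 2131 to 2580. The rule that named these genes required this separation, which 1879 of 28632 genes showed upward and 1158 downward.

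The genes whose pattern over the 20 libraries was nearest to that of Hscb, by the root mean square difference of centred log2 CPM among 12273 genes, were Dtnbp1 (0.09), Spg21 (0.11) and Grina (0.11). Their likeness to Hscb is a description, since they were picked by it.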

How the data were processed

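RNAseq gene counts of 20 islet libraries were used. Per the labels and the study's methods, the authors trimmed reads with cutadapt 2.3, checked them with FastQC 0.11.8, aligned them to GRCm38 with STAR 2.6.1b and estimated counts with RSEM 1.3.1. The deposited count table gives these expected counts rounded and not normalized, and every gene in it has a count in at least 1 library. The signal in the other deposited table, which is counts divided by the authors' DESeq2 1.26.0 normalization factors, was used only to recover these factors. The step that made the factors vary between genes is not given in the sources used here.

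Counts of all 28632 genes were fitted with edgeR 4.0.16 in R 4.3.3 (TMM, estimateDisp, glmQLFit, glmQLFTest), with 1 coefficient per genotype over all 20 libraries, no covariate and 6.24 prior degrees of freedom. For each of 6 contrasts p-values were adjusted by Benjamini-Hochberg across the whole table, and a gene passed at an adjusted p < 0.05. The SE of a log2 fold change was its size over the square root of F. Intervals are 95% t intervals with the degrees of freedom of the fit. All tests were two-sided, and the fit was tested on simulated data. Libraries held 12400687 to 122947313 counts, and the only member under 100 counts in any library was Hscb.

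Genes were matched by Ensembl identifier to GENCODE release M21 on GRCm38, 71 of them without a symbol. The members and lists were chosen with earlier results of these data known. Named beside the members are, from each of 4 pathway lists, at most 4 genes by size of change that passed in β-Mfn1/2DKO against Ctrl without overlap of libraries, the 3 genes nearest in pattern to the member with the largest change, and Mfn1 and Mfn2. A gene that this rule names is not reported here. Motifs were chosen after the values were seen. Alternatives were DESeq2 1.42.0, its size factors in edgeR, total-count scaling, filterByExpr, only the groups compared, sex, replicate number, acinar score or depth class as covariates, thinning every library to the smallest total (seed 20), the authors' factors, deep libraries only (the 7 with the most counts), and leaving out each library or the 2 acinar-rich ones. Tables and figures used Python 3.11.15, pandas 2.3.3, NumPy 2.4.6, SciPy 1.17.1 and Matplotlib 3.10.9.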

Additional observations from a re-analysis of the deposited data

Results flagged for a closer look

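Of 36 groups of member values (9 genes in 4 genotypes), 1 held a library that stood apart from the rest by Dixon's test at the 95% level, which chance does in about 1 of 20 groups. Nfu1 in β-Mfn1/2DKO replicate 5 was at 1338 normalized counts, against 1685 to 1761 in the other 4 libraries of that genotype, a gap of 0.82 of the range where 0.71 is the limit for 5 values. This library also had the highest acinar score (11.63) and the fewest counts (65533388) of its genotype. β-Mfn1/2DKO replicate 4, with an acinar score of 10.21, was at 1685. The part of acinar mRNA and of depth in the low value was not tested.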

How the results depend on the processing

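Numbers of members that passed are given first. In β-Mfn1/2DKO against Ctrl, 2 passed, but 6 did under total-count scaling, 1 (Hscb) under the authors' factors, 0 with depth class as a covariate and 0 when a 1.5-fold change was also required. Against β-Mfn2KO, 2 passed, but 5 did under total-count scaling, 1 (Nfu1) with counts drawn down, 1 (Iba57) in deep libraries only, 0 with depth class and 0 past 1.5-fold. Against β-Mfn1KO, 1 passed, but 4 did under total-count scaling, 2 with acinar score as a covariate, 2 without the acinar-rich libraries, 2 with DESeq2, 0 with depth class and 0 past 1.5-fold, and fits that each dropped 1 library gave 1 to 2, with 2 only without β-Mfn1/2DKO replicate 5. Against Ctrl such fits gave 2 or, without Ctrl replicate 3, 3. Both single knockouts against Ctrl and the interaction kept 0 in every alternative. Over all genes, 4710 passed in β-Mfn1/2DKO against Ctrl, and 728 with depth class as a covariate. The cause was not tested, except that total-count scaling moves the median gene and that the fold requirement is stricter by construction.

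Same-numbered libraries deviated from their group means together more often than others. The correlation of these deviations exceeded 0.1 in 21 of 27 same-numbered pairs (mean 0.246, lowest -0.10). Among pairs with different numbers it did so in 36 of 122 (mean -0.054). Libraries numbered 1 and 2 were all female and those numbered 4 to 6 all male, so number went largely with sex. Among different numbers, the highest correlation (0.672) was between males and the lowest (-0.631) between libraries of unlike sex. Within number 3, libraries of like sex gave 0.225 (Ctrl, β-Mfn1KO) and 0.452 (β-Mfn2KO, β-Mfn1/2DKO). Those of unlike sex gave -0.039 and 0.21 for Ctrl with β-Mfn2KO and β-Mfn1/2DKO, and -0.081 and -0.055 for β-Mfn1KO with these. The parts of number and sex were not tested apart. What the number stands for was not stated, so the main fit did not pair samples and a block by number was an alternative. With the replicate block, 2 members passed against Ctrl, 2 against β-Mfn2KO, 1 against β-Mfn1KO and 0 elsewhere, as without it.

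Of 2048 alternative log2 differences of single genes, 105 changed sign, and 104 of these passed neither before nor after. The exception was Fdx1 against Ctrl with depth class (-0.02). The rest follow by setting, with the value after the change.
With total-count scaling, signs turned in β-Mfn1/2DKO against Ctrl for Isca1 0.06 and Isca2 0.11, in β-Mfn2KO against Ctrl for Isca1 0.00 and Fdxr 0.03, in β-Mfn1KO against Ctrl for Fdxr -0.01, in β-Mfn1/2DKO against β-Mfn2KO for Isca1 0.06 and Glrx5 0.06, in β-Mfn1/2DKO against β-Mfn1KO for Iscu 0.16, Isca1 0.03, Isca2 0.07, Iba57 0.11 and Glrx5 0.15, and in the interaction for Iscu 0.10, Isca1 0.03 and Glrx5 0.01. With the authors' factors, signs turned in β-Mfn1/2DKO against Ctrl for Isca2 0.07 and Glrx5 -0.22, in β-Mfn1KO against Ctrl for Glrx5 -0.08 and Fdxr -0.04, in β-Mfn1/2DKO against β-Mfn1KO for Iscu 0.01 and Nfs1 -0.02, and in the interaction for Nfs1 -0.04 and Iba57 -0.02. Without the acinar-rich libraries, signs turned in β-Mfn1/2DKO against Ctrl for Isca2 0.02, in β-Mfn2KO against Ctrl for Fdxr 0.00, in β-Mfn1/2DKO against β-Mfn2KO for Glrx5 0.04, in β-Mfn1/2DKO against β-Mfn1KO for Iscu 0.07 and Glrx5 0.08, and in the interaction for Iscu 0.03. With depth class as a covariate, signs turned in β-Mfn2KO against Ctrl for Isca1 0.01, Iba57 0.03, Hscb -0.02 and Nfu1 -0.01, in β-Mfn1/2DKO against β-Mfn2KO for Isca2 -0.01, in β-Mfn1/2DKO against β-Mfn1KO for Iscu 0.01, Iba57 0.19, Glrx5 0.06 and Nfu1 -0.00, and in the interaction for Isca2 -0.07. With counts drawn down, signs turned in β-Mfn2KO against Ctrl for Hscb -0.03, in β-Mfn1/2DKO against β-Mfn1KO for Nfs1 -0.01, and in the interaction for Nfs1 -0.04, Isca2 -0.02 and Iba57 -0.10. With sex as a covariate, signs turned in β-Mfn2KO against Ctrl for Fdxr 0.00. With acinar score as a covariate, signs turned in β-Mfn2KO against Ctrl for Fdxr 0.00, in β-Mfn1/2DKO against β-Mfn1KO for Iscu 0.03 and Glrx5 0.01, and in the interaction for Iba57 -0.00. With the replicate block, signs turned in β-Mfn1KO against Ctrl for Hscb 0.06 and Fdxr -0.01, in β-Mfn1/2DKO against β-Mfn1KO for Iscu 0.01 and Glrx5 0.00. In deep libraries only, signs turned in β-Mfn1/2DKO against β-Mfn2KO for Isca1 0.04 and Glrx5 0.05. With only the groups compared, signs turned in β-Mfn1/2DKO against β-Mfn1KO for Iscu 0.01. With DESeq2 size factors, signs turned in the interaction for Isca2 -0.01 and Iba57 -0.00. With filterByExpr, signs turned in the interaction for Isca2 -0.00. With DESeq2, signs turned in the interaction for Isca2 -0.02. Fits that each dropped 1 library had these ranges: in β-Mfn2KO against Ctrl Isca1 -0.05 to 0.01 and Hscb -0.00 to 0.15 and Fdxr -0.06 to 0.06, in β-Mfn1KO against Ctrl Isca2 -0.01 to 0.09 and Glrx5 -0.01 to 0.13 and Hscb -0.09 to 0.05 and Fdxr -0.04 to 0.08, in β-Mfn1/2DKO against β-Mfn1KO Iscu -0.03 to 0.03 and Glrx5 -0.07 to 0.07, in the interaction Isca2 -0.03 to 0.08 and Iba57 -0.06 to 0.08.

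Counts were lowest for Hscb, with 88 to 145 per Ctrl library.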
